A study of Mus musculus with 9 samples.

Results

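The insulin-like growth factor (IGF) genes followed here were the ligand gene Igf1, its receptor gene Igf1r and the binding protein genes Igfbp2, Igfbp3, Igfbp4, Igfbp5, Igfbp6 and Igfbp7. They were taken by symbol, and each of the 8 genes matched a single row of a table of 41214 Ensembl features. The table held RNA-seq of 3 sorted endothelial populations of the mouse heart at E17.5 (days of embryonic development), with atria and aortic region removed and 3 libraries for each population. All embryos carried the transgenes Nes-Gfp (Tg/0) and Nes-CreER (Tg/0) and the allele R26 (tom/+), and tamoxifen (0.1 µg) was given at E15.5. Both transgenes are driven by Nestin sequences, so that Tomato marks cells, and descendants of cells, in which that driver was active when tamoxifen was given. All sorts were viable cells without Ter119 or CD45, with CD31 and GFP. The arterial population, described as enriched for arteries within the heart muscle and for capillaries, was also low for endomucin and positive for Tomato. The venous population, described as enriched for veins below the epicardium, was low for endomucin, negative for Tomato and low for GFP. The endocardial population, meant to hold the inner lining of the chambers, has no endomucin or Tomato condition in its gate as written, and all 3 gates are enrichments rather than pure types. Arterial and venous libraries are jointly referred to as coronary. How many embryos went into a library is not given, so that p-values reflect the variation among the libraries at hand and this variation could be technical.

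IGF1 and the related IGF2 are secreted growth factors that signal through the IGF1 receptor, a tyrosine kinase, to the PI3K-AKT and MAP kinase branches. IGF binding proteins are secreted carriers that hold IGFs outside the cell, and depending on the setting they hold back or deliver the ligand. Cleavage by proteases releases the ligand, and several of the binding proteins also bind matrix or cell surface molecules without IGF. IGFBP7 binds IGFs weakly and is found in the matrix around blood vessels. In the embryonic heart, IGF signals are known for their role in the growth of the ventricular wall.

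The members lie on 6 chromosomes in GRCm38 (GENCODE release 21 for mouse). Igf1 lies on chromosome 10 (87858265 to 87937042, plus strand), Igf1r on chromosome 7 (67952827 to 68233668, plus strand) and Igfbp4 on chromosome 11 (99041244 to 99054392, plus strand). Igfbp6 is on chromosome 15 (102144362 to 102149511, plus strand) and Igfbp7 on chromosome 5 (77349240 to 77408041, minus strand). A pair of members are neighbours, since Igfbp2 (chromosome 1, 72824503 to 72852474, plus strand) and Igfbp5 (72857932 to 72874884, minus strand) point at each other with 5458 bases between them. Igfbp3 (chromosome 11, 7206086 to 7213923, minus strand) faces Igfbp1, a binding protein gene outside the set, across 3540 bases.

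The sequence just before the transcription start is shown for the 4 binding protein genes whose levels separated endocardial from coronary libraries. Each line gives 100 bases upstream of the RefSeq start (GRCm38.p6), 5′ to 3′ on the strand of the gene, with capitals for matches on either strand to 4 short words. The word GGGCGG is the core of the GC box. The others are A/T-rich, namely TATAAA (the usual TATA box), the variant TATATA, which can overlap it, and lastly TTTAAA. The first pair had more RNA in coronary and the second pair more in endocardial libraries. The windows are chr11:7213924-7214023 (minus strand) for Igfbp3, chr5:77408046-77408145 (minus strand) for Igfbp7, chr11:99041144-99041243 (plus strand) for Igfbp4 and chr1:72874866-72874965 (minus strand) for Igfbp5.
Igfbp3: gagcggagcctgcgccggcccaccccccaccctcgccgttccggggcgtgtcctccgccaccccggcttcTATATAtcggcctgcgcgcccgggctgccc
Igfbp7: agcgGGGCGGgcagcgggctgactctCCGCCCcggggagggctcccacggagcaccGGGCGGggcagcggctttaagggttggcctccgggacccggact
Igfbp4: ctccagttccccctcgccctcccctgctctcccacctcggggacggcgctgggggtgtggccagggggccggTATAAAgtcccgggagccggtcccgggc
Igfbp5: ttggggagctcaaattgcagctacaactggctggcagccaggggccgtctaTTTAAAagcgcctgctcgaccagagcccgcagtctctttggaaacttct

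An A/T-rich word began 30 bases before the start in Igfbp3, 28 bases before it in Igfbp4 and 49 bases before it in Igfbp5. The RefSeq start of Igfbp5 lies 19 bases inside the gene as GENCODE gives it, and from the GENCODE start the word began 30 bases upstream. Igfbp7 held none of these words but 3 matches to GGGCGG. Among 32851 RefSeq windows of the same length, 10.9% held at least 1 of the 3 A/T-rich words and 24.7% held GGGCGG. The windows of Igfbp3, Igfbp7 and Igfbp4 were 77.0%, 77.0% and 75.0% G or C and that of Igfbp5 55%, against a median of 55% over all windows. An A/T-rich word was thus present in genes that were higher in coronary and in genes that were higher in endocardial libraries. These matches describe the letters and are not evidence of binding.

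Libraries held 12750553 to 19474419 counts, and 17103 genes passed the filter on low counts. Of the members, 7 passed it and Igfbp6 did not. Igfbp2 passed through its arterial libraries alone, since its highest count elsewhere was 8. Levels are in CPM (counts scaled to a common library size, with TMM factors) and are given as mean ± SD (n = 3 libraries). Differences are log2 fold changes with their standard error (SE), and a gene was called at an adjusted p under 0.05 over all genes tested (edgeR quasi-likelihood test). In bulk RNA, fewer cells of a type and less RNA per cell cannot be told apart. The sort was checked on markers. Summed endothelial markers (7 genes, among them Cdh5 and Kdr) stood at 3357 to 6895 CPM in all libraries. Cdh5 and Kdr were lowest and Tek was highest in endocardial libraries. Arterial markers (8 genes, among them Gja5 and Hey1) summed to 800 to 1019 CPM in arterial, 361 to 413 CPM in venous and 328 to 397 CPM in endocardial libraries. Of these 8, 6 were called higher in arterial than in venous libraries. Gja4 had 55.4, 7.69 and 49.2 CPM in arterial, venous and endocardial libraries. Endocardial markers (7 genes, among them Npr3 and Cdh11) summed to 94.6 to 109.8 CPM in arterial, 285 to 413 CPM in venous and 3813 to 4568 CPM in endocardial libraries. Within this list Tbx20 was highest in venous libraries, with 14.2, 136 and 88.0 CPM in arterial, venous and endocardial ones.

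The binding protein genes fell into opposite gradients across the 3 populations. Igfbp3 and Igfbp7 stood highest in arterial, lower in venous and lowest in endocardial libraries. Igfbp5 ran the other way, with 18.2-fold more RNA in endocardial than in arterial libraries. Igf1 was also lowest in arterial libraries, Igfbp4 was highest in endocardial ones, and Igf1r did not differ detectably between populations. Between arterial and venous libraries 3 of the 7 members tested were called, Igfbp3 higher and Igf1 and Igfbp5 lower in arterial ones, against 1.07% of all genes (0.31% higher and 0.76% lower). Between arterial and endocardial libraries 5 of 7 were called, Igfbp3 and Igfbp7 higher and Igf1, Igfbp4 and Igfbp5 lower in arterial ones, against 11.7% of all genes (5.92% higher and 5.75% lower). Between venous and endocardial libraries 4 of 7 were called, Igfbp3 and Igfbp7 higher and Igfbp4 and Igfbp5 lower in venous ones, against 10.2% of all genes (5.81% higher and 4.44% lower). Libraries of the populations compared did not overlap for 4, 5 and 5 of the 6 members other than Igfbp2, whose passing of the filter rested on its arterial level, against 17.3%, 25.6% and 28.2% of all genes. The 3 comparisons share libraries and are not independent. Median log2 fold changes of these 6 members were 0.13, -0.63 and -0.50 in this order, against 0.03, 0.01 and -0.10 over all genes, with members on both sides of 0 in each comparison.

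**Figure D1:**
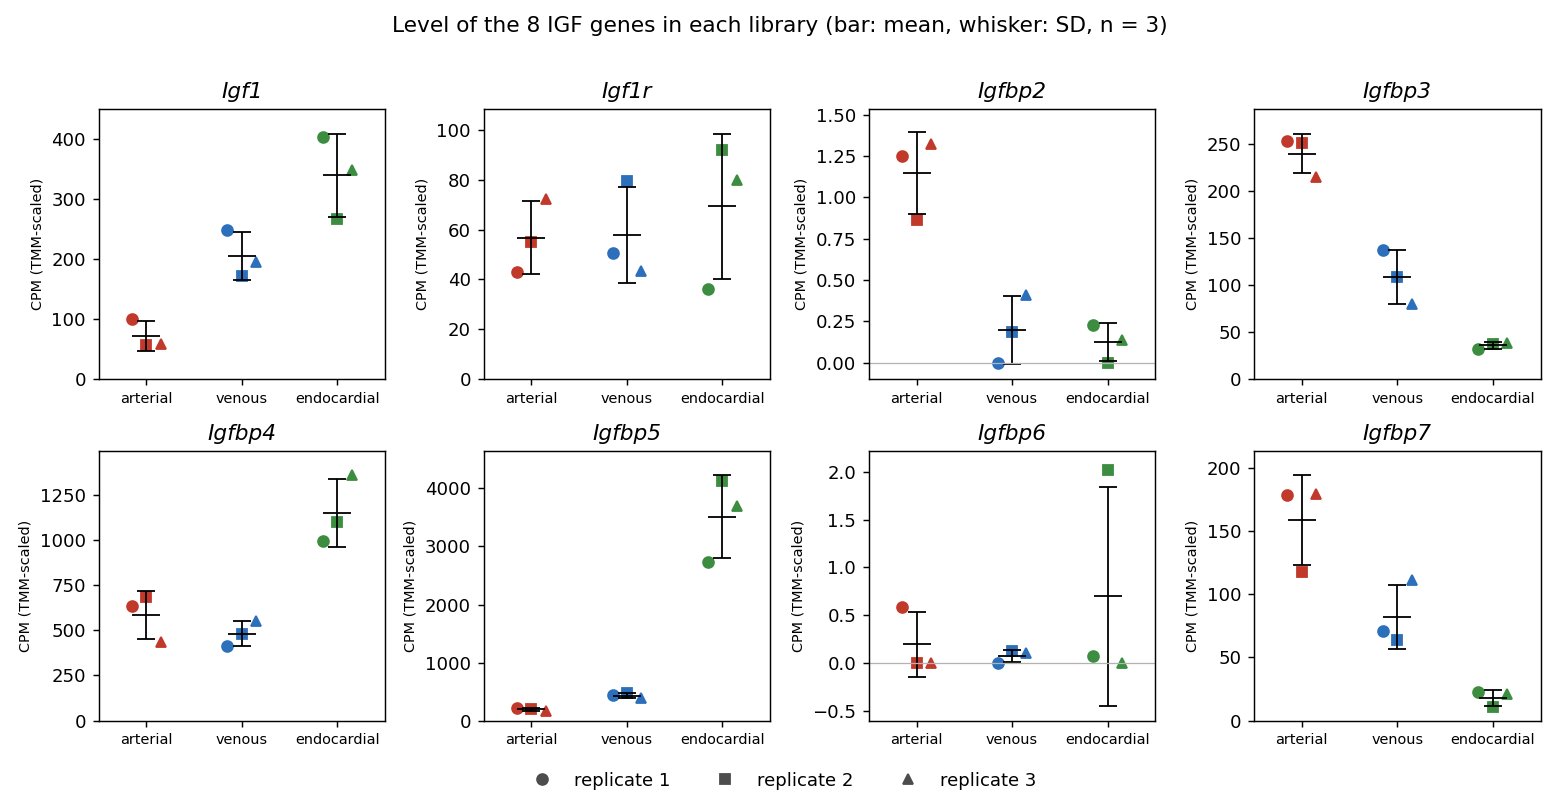
Level of each of the 8 genes in every library, in CPM on TMM-scaled library sizes (vertical axes differ between panels and start at 0 except for Igfbp2 and Igfbp6). Points are single libraries with the shape giving the replicate number, the horizontal bar is the mean and the whisker the SD of 3 libraries; Igfbp3 and Igfbp7 fall and Igf1 and Igfbp5 climb from arterial through venous to endocardial libraries.

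The ligand gene Igf1 had 101, 57.6 and 57.7 CPM in arterial replicates 1, 2 and 3, and 248, 171 and 196 CPM in the venous ones. In endocardial replicates 1, 2 and 3 it had 405, 267 and 349 CPM. No library of one population overlapped with another, and the arterial ones were the lowest. Igf1 was 2.85-fold lower in arterial (72.0 ± 24.8 CPM) than in venous libraries (205 ± 39.3), with a log2 fold change of -1.51 ± 0.24 (SE, adjusted p = 0.00361, edgeR). Against the endocardial libraries (340 ± 69.1 CPM) it was 4.73-fold lower in arterial ones (log2 -2.24 ± 0.24, adjusted p = 1.11e-05). The difference between venous and endocardial libraries missed the threshold (log2 -0.73 ± 0.23, adjusted p = 0.0639), although it had the same sign in each of the 3 batches. With the replicate number as a block it was called (adjusted p = 0.00391). It was likewise called when arterial replicate 1 (0.0134), arterial replicate 3 (0.0437), endocardial replicate 2 (0.0354) or venous replicate 1 (0.0450) was left out. DESeq2 (0.0185), RLE scaling (0.0470), no filter on low counts (0.00640) and a fit of only the 2 populations compared (0.0330) also called it. Over all alternatives the adjusted p ranged from 0.00391 to 0.217. Macrophages are a known source of Igf1, and 8 leukocyte markers summed to 5.07 to 25.7 CPM in arterial, 6.18 to 9.29 CPM in venous and 9.87 to 22.2 CPM in endocardial libraries. Of these 8 markers, C1qa had no count in venous and endocardial libraries, and Tyrobp had none in arterial and endocardial ones. Cd68 averaged 1.93, 3.39 and 3.81 CPM in arterial, venous and endocardial libraries. In the same order Csf1r averaged 1.62, 1.02 and 1.78 CPM and Cx3cr1 7.24, 2.07 and 7.14 CPM. Ptprc averaged 2.12, 0.79 and 0.78 CPM, C1qb 0.20, 0.02 and 0.81 CPM and Adgre1 0.12, 0.02 and 0.33 CPM. Their part in the level of Igf1 was not tested. The antisense gene Igf1os overlaps 5117 bases of Igf1 and had at most 2.94 CPM in any library.

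Igf1r, the receptor gene, had 42.9, 55.1 and 72.2 CPM in arterial, 50.8, 79.4 and 43.3 CPM in venous and 36.2, 91.7 and 79.8 CPM in endocardial replicates 1, 2 and 3. The populations overlapped throughout, and the lowest and the highest library were both endocardial. No comparison was called, with log2 fold changes of -0.03 ± 0.34 (arterial minus venous), -0.29 ± 0.34 (arterial minus endocardial) and -0.26 ± 0.34 (venous minus endocardial) and adjusted p from 0.735 to 0.997. The sign of the first flipped under upper-quartile scaling (0.02) and without arterial replicate 1 (0.13) or venous replicate 2 (0.26), and that of the third without endocardial replicate 2 (0.02).

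Igfbp3 encodes the main carrier of IGFs in blood serum. It had 253, 251 and 216 CPM in arterial, 137, 108 and 80.3 CPM in venous and 31.5, 37.8 and 38.3 CPM in endocardial replicates 1, 2 and 3. The 3 populations did not overlap, and the order arterial, venous, endocardial held in each batch. All neighbours in this order differed beyond their spread. Levels were 2.21-fold higher in arterial (240 ± 21.2 CPM) than in venous libraries (109 ± 28.4), at log2 1.14 ± 0.20 and adjusted p = 0.00622 (edgeR). Venous libraries were in turn 3.03-fold higher than endocardial ones (35.9 ± 3.81 CPM), at log2 1.60 ± 0.20 and adjusted p = 4.77e-05. The arterial to endocardial difference was 6.69-fold (log2 2.74 ± 0.21, adjusted p = 1.31e-07).

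Igfbp7, also known as angiomodulin, followed the same order of populations. Arterial replicates 1, 2 and 3 had 179, 117 and 180 CPM, venous ones 70.9, 63.6 and 111 CPM and endocardial ones 22.3, 10.5 and 21.2 CPM. The populations did not overlap, but arterial replicate 2 and venous replicate 3 were close to each other. Arterial libraries (159 ± 35.7 CPM) were 8.79-fold and venous libraries (81.9 ± 25.6) 4.54-fold higher than endocardial ones (18.0 ± 6.52), at log2 3.14 ± 0.32 and 2.18 ± 0.31 and adjusted p of 1.51e-05 and 0.000387 (edgeR). The arterial to venous difference, log2 0.95 ± 0.30, was not called (adjusted p = 0.268). It had the same sign in each of the 3 batches and was called with the replicate block (adjusted p = 0.0137) and without a filter on low counts (0.00239). The 3′ end of Igfbp7 shares 85 bases with Polr2b, a gene on the other strand with 58.2 to 127 CPM in these libraries. The antisense gene Gm34648, whose symbol matched no row of the count table, overlaps 7085 bases of Igfbp7. Whether counting used the strand is not given in the sources used here, so that reads of shared bases cannot be assigned, for Igfbp7 as for Igf1.

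Igfbp5 encodes a binding protein that attaches to extracellular matrix. Its levels in arterial replicates 1, 2 and 3 were 211, 197 and 170 CPM, in venous ones 433, 475 and 387 CPM, and in endocardial ones 2728.5, 4119.9 and 3698 CPM. Every endocardial library stood far above every coronary one, and every venous above every arterial library. The fall from endocardial (3516 ± 713 CPM) to venous libraries (432 ± 43.7) was 8.15-fold, at log2 -3.03 ± 0.18 and adjusted p = 1.19e-08 (edgeR). From venous to arterial libraries (193 ± 20.7 CPM) it was 2.24-fold, at log2 -1.16 ± 0.17 and adjusted p = 0.00108. Arterial and endocardial libraries differed by log2 -4.19 ± 0.19 (adjusted p = 4.20e-10). Endocardial replicate 1, which had the lowest endocardial level, also had more genes detected (21021) than the other endocardial libraries (17251 and 17063), and without it the arterial to endocardial value was -4.34.

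Igfbp4, a binding protein gene whose product is cleaved by the protease PAPP-A, separated endocardial from coronary libraries without separating the coronary populations. It had 637, 687 and 433 CPM in arterial and 416, 477 and 552 CPM in venous replicates 1, 2 and 3, against 994, 1102 and 1360.3 CPM in endocardial ones. Arterial and venous libraries overlapped, and all endocardial libraries were higher. The endocardial level (1152 ± 188 CPM) was 1.97-fold that of arterial (586 ± 134; log2 -0.98 ± 0.19, adjusted p = 0.00171, edgeR) and 2.39-fold that of venous libraries (482 ± 68.3; log2 -1.26 ± 0.19, adjusted p = 0.000248). Arterial and venous libraries differed by log2 0.28 ± 0.19 (adjusted p = 0.773), higher in arterial libraries in 2 of the 3 batches.

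Igfbp2 and Igfbp6, which encode further IGF carriers, had few counts. Igfbp2 had 17, 15 and 18 counts in arterial, 0, 3 and 8 in venous and 3, 0 and 2 in endocardial replicates 1, 2 and 3. The arterial libraries were the highest at 0.86 to 1.32 CPM, yet no comparison was called (adjusted p from 0.475 to 0.898, edgeR), since counts this low carry a wide error. Igfbp6 had 8 counts in arterial replicate 1, 28 in endocardial replicate 2 and at most 2 in any other library. A count of 0 allows up to 3 counts, or 0.154 to 0.229 CPM in these libraries, a limit that covers counting error only. In venous and endocardial libraries Igfbp2 thus lay near that limit, and in arterial ones above it. Igfbp1, the neighbour of Igfbp3, had 0.63, 0.93 and 0.66 CPM in arterial, venous and endocardial libraries.

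**Figure D2:**
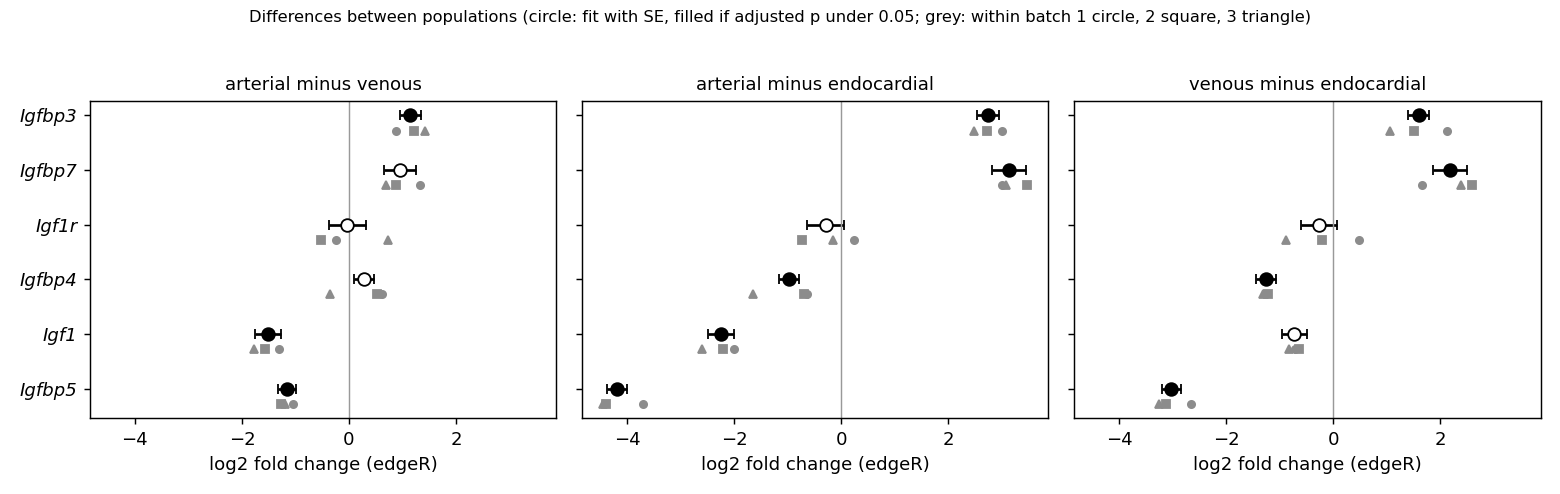
Log2 fold changes of the 6 members with counts in every library for the 3 comparisons (horizontal axis; positive values are higher in the population named first). Circles with whiskers are the edgeR estimate and its SE, filled where the adjusted p was under 0.05, and grey marks below are the differences within batches 1, 2 and 3; Igfbp5 reached -4.19 and Igfbp7 3.14 in the arterial to endocardial comparison, and batch values of Igf1r lay on both sides of 0.

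Levels of different genes were compared per length, as CPM per kilobase of exon, rescaled to the same total in each library. On this scale the 6 binding protein genes summed to 975 to 1147 in arterial, 702 to 857 in venous and 1877 to 2392 in endocardial libraries, and the populations did not overlap. In arterial libraries the sum was shared mainly by Igfbp4 (35.4% ± 7.0), Igfbp7 (35.3% ± 8.34) and Igfbp3 (20.6% ± 1.2), with 8.59% ± 0.38 for Igfbp5. In venous libraries Igfbp4 took 38.4% ± 2.95, Igfbp5 25.5% ± 4.07, Igfbp7 23.6% ± 5.59 and Igfbp3 12.4% ± 3.98. In endocardial libraries Igfbp5 took 66.8% ± 4.18 and Igfbp4 30.0% ± 3.47, while Igfbp7 and Igfbp3 took 1.79% ± 0.85 and 1.32% ± 0.09. Igfbp4 held between 30.0% and 38.4% on average in every population, while the share of Igfbp5 was large where those of Igfbp3 and Igfbp7 were small. Shares of the same sum are tied, since a rise of any share lowers the rest. With the longest transcript as the length in place of all exons, Igfbp5 had 63.6% in endocardial and 7.69% in arterial libraries.

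Ratios of 2 members within a library do not depend on the scaling of libraries. Igfbp5 over Igfbp3, per length, was 0.409 to 0.434 in arterial, 1.65 to 2.51 in venous and 45.2 to 56.9 in endocardial libraries. Igfbp5 over Igfbp7 was 0.191 to 0.339, 0.701 to 1.5 and 24.6 to 78.8 in the same order. The level of Igf1 against Igfbp3 was 0.0724 to 0.126, 0.50 to 0.771 and 2.24 to 4.06, so that Igf1 exceeded Igfbp3 in endocardial libraries alone. Against Igfbp5 the order differed, at 0.177 to 0.290 in arterial, 0.219 to 0.348 in venous and 0.0393 to 0.0899 in endocardial libraries. Igfbp3 over Igfbp7 overlapped between all populations (0.464 to 0.828, 0.279 to 0.746 and 0.545 to 1.39). These ratios are descriptions with no test. None was taken for the other ligand gene Igf2, which averaged 3917, 4054 and 14268 CPM in arterial, venous and endocardial libraries.

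**Figure D3:**
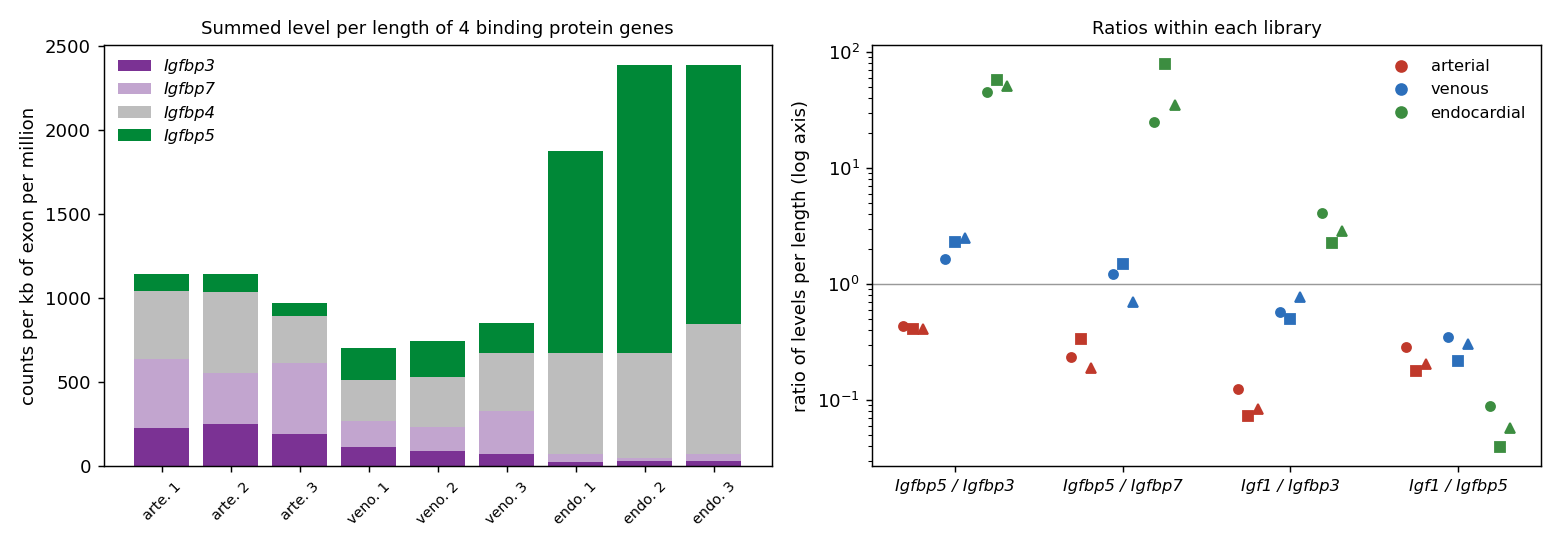
Left, levels per length (CPM per kilobase of exon, rescaled) of Igfbp3, Igfbp7, Igfbp4 and Igfbp5 stacked for each library (arterial, venous and endocardial replicates 1 to 3). Right, ratios of members within each library on a log axis, with the color giving the population and the shape the replicate; Igfbp5 over Igfbp3 lies below 1 in arterial and at 45.2 or above in endocardial libraries.

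Markers of other cell types also differed between these populations, and members of 1 list did not always share an order. Fibroblast markers (10 genes) summed to 111 to 128 CPM in arterial, 1432 to 1663 CPM in venous and 1703 to 2053 CPM in endocardial libraries, and none was at 0 in a whole population. Of the 10, 7 were called lower in arterial than in venous libraries and 8 lower than in endocardial ones. Between venous and endocardial libraries Postn (574 and 1047 CPM), Pdgfra (32.4 and 112), Lum (15.8 and 63.3) and Mfap5 (21.4 and 80.8) were higher in endocardial ones, as Igfbp5 was, while Col1a1 (149 and 26.7), Col3a1 (526 and 289) and Dpt (35.1 and 2.53) were higher in venous ones. Mural cell markers (9 genes) summed to 535 to 844 CPM in arterial, 235 to 343 CPM in venous and 79.7 to 150 CPM in endocardial libraries. Most of that sum was Abcc9 (517, 201 and 48.8 CPM), with Rgs5 in the same order, while Pdgfrb was highest in endocardial libraries (14.8, 9.40 and 40.8 CPM) and the contractile genes Acta2, Tagln and Myh11 were at 0.91 to 6.98 CPM. Epicardial markers (7 genes) summed to 183 to 211 CPM in arterial, 156 to 185 CPM in venous and 25.5 to 33.1 CPM in endocardial libraries. Nearly all of that was Wt1 (189, 147 and 20.0 CPM), while Tbx18 (1.75, 9.38 and 3.00 CPM), Aldh1a2 (0.37, 7.49 and 1.46 CPM) and Krt19 (2.36, 6.95 and 0.69 CPM) were highest in venous libraries. Lymphatic markers (5 genes) summed to 84.5 to 113 CPM in arterial, 122 to 205 CPM in venous and 656 to 757 CPM in endocardial libraries, where Prox1, Lyve1 and Reln were higher than in both coronary populations. Cardiomyocyte markers (9 genes) summed to 268 to 396, 406 to 568 and 504 to 597 CPM in the same order of populations, and erythroid markers (5 genes) to 95.7 to 196, 54.2 to 58.9 and 8.56 to 69.5 CPM. Venous markers (5 genes) summed to 279 to 401, 641 to 790 and 2281 to 2930 CPM, highest in endocardial libraries through Cpe and Vwf, whereas Aplnr was highest in venous ones. By their medians, the sums of endocardial, lymphatic, fibroblast and venous markers run in the order of Igf1 and Igfbp5. Those of mural, epicardial, erythroid, arterial and endothelial markers run in the order of Igfbp3 and Igfbp7. Of the latter, endothelial and epicardial sums overlapped between arterial and venous libraries, but not between venous and endocardial ones. Arterial and erythroid sums overlapped between venous and endocardial libraries, but not between arterial and venous ones. Mural sums did not overlap between populations. Within the mural list Pdgfrb, Notch3, Cspg4, Tagln and Myh11 did not follow the order of Igfbp3 and Igfbp7. The part of other cells, or of endocardial cells in the venous sort, in the values of the members was not tested.

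Genes with the profile most like that of a member were sought by the root mean square difference between log2 CPM profiles, each centred on its mean over the 9 libraries, among 13912 protein-coding genes. For Igfbp5 they were the transporter gene Slc22a23 (difference of 0.232 on the log2 scale), the phospholipase gene Pla2g4a (0.269) and the forkhead factor gene Foxc1 (0.275). Foxc1 had 13.2 ± 0.81 CPM in arterial, 26.6 ± 5.25 CPM in venous and 218 ± 20.7 CPM in endocardial libraries. Pla2g4a was low in coronary libraries, at 0.79 CPM in arterial and 1.69 CPM in venous against 17.0 CPM in endocardial ones. Nearest to Igfbp7 were Crybg1 (0.319), Ccdc88c (0.340) and Pik3cb (0.366), the last encoding a catalytic subunit of PI3-kinase. Crybg1 was low throughout, at 2.84, 1.36 and 0.23 CPM in arterial, venous and endocardial libraries, the last near what a count of 0 allows. Nearest to Igfbp3 were Sorbs2 (0.260), the myosin gene Myo10 (0.318) and the kinase gene Map4k3 (0.334). Myo10 had 390 ± 13.4 CPM in arterial, 165 ± 20.2 CPM in venous and 75.4 ± 5.76 CPM in endocardial libraries. Neither Igfbp3 nor Igfbp7 was among the 3 nearest of the other.

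The rest of the pathway was followed with 76 further genes of IGF and insulin signalling, 73 of which were tested. Called genes numbered 1 for arterial against venous, 17 for arterial against endocardial and 17 for venous against endocardial libraries, or 1.37%, 23.3% and 23.3% of those tested, beside 1.07%, 11.7% and 10.2% of all genes. In the comparisons with endocardial libraries 10 and 11 of the 17 were higher in endocardial libraries. Median log2 fold changes of the 73 genes were -0.02, -0.04 and -0.06.

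Among the other ligand genes, Igf2 encodes a growth factor known for its role in fetal growth. It had 3703, 4053 and 3996 CPM in arterial, 3400.2, 4746 and 4015 CPM in venous and 9930.0, 15818 and 17056 CPM in endocardial replicates 1, 2 and 3. All endocardial libraries were higher, with log2 fold changes of -1.87 for arterial minus endocardial (adjusted p = 3.50e-06, edgeR) and -1.82 for venous minus endocardial (adjusted p = 7.67e-06). Unlike Igf1, Igf2 did not separate arterial from venous libraries (-0.05, adjusted p = 0.984). Of the insulin genes, Ins1 was not tested and Ins2 was not called.

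Receptor genes were higher in endocardial libraries where they were called. Igf2r, whose product takes up and clears IGF2, had 872 ± 112 CPM in arterial, 1352 ± 83.5 CPM in venous and 3913 ± 1056 CPM in endocardial libraries, at adjusted p of 5.32e-07 and 2.88e-05 for the comparisons of arterial and venous with endocardial libraries (edgeR). Its arterial to venous difference (log2 -0.63, adjusted p = 0.167) was called with the replicate block (0.0190) and without endocardial replicate 1 (0.0183). The insulin receptor gene Insr had 62.0 ± 8.82, 48.6 ± 3.09 and 93.8 ± 9.62 CPM. It was called for venous minus endocardial (log2 -0.95, adjusted p = 0.00271). Its arterial minus endocardial call (log2 -0.60, adjusted p = 0.0481) ended without any library other than endocardial replicate 1 (0.0764 to 0.195). The insulin receptor-related gene Insrr had 2.06 ± 0.34 CPM in venous and 11.2 ± 9.17 in endocardial libraries (adjusted p = 0.0216), a call that ended without endocardial replicate 1 (0.158) or venous replicates 1 (0.0617), 2 (0.0691) or 3 (0.0687).

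Proteases that cleave binding proteins, with their inhibitors, were mostly not called. Of 8 tested genes, Adamts1 was lower in venous than in endocardial libraries (log2 -0.78, adjusted p = 0.00974, edgeR; 0.0626 without venous replicate 2), and no other was called in any comparison. Pappa, which encodes the protease PAPP-A, averaged 1.76 ± 2.55 CPM in arterial libraries, 0.89 ± 0.88 CPM in venous ones and 6.45 ± 1.60 CPM in endocardial ones, at adjusted p from 0.137 to 0.916. It was called for arterial minus endocardial without arterial replicate 3 (log2 -4.42, adjusted p = 0.0263).

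Of 9 receptor adaptors tested, Grb10, an adaptor known to dampen insulin and IGF receptor signals, was higher in coronary libraries, with 1109 ± 97 CPM in arterial and 1092 ± 100.2 in venous against 655 ± 142 in endocardial libraries (adjusted p = 0.00523 and 0.00777, edgeR). The docking protein gene Gab1 was lower in arterial (38.6 ± 2.34 CPM) than in endocardial libraries (92.0 ± 14.8; adjusted p = 0.000204). Its difference between venous (61.1 ± 4.02 CPM) and endocardial libraries (adjusted p = 0.0578) was called with DESeq2 (0.0136), RLE scaling (0.0403), upper-quartile scaling (0.0357), a minimum count of 50 (0.0240) and without endocardial replicate 1 (0.0397). Irs2, the insulin receptor substrate gene, had 1.40, 0 and 0 CPM in arterial replicates 1, 2 and 3 and 10.8, 18.1 and 13.1 CPM in endocardial ones. It was called (adjusted p = 0.0244), but not without endocardial replicates 2 (0.0679) or 3 (0.0671) or any venous library (0.0595 to 0.0702). Without arterial replicate 1, Irs2 was also called for arterial minus venous (0.00065) and venous minus endocardial (0.0061), which were at adjusted p of 0.610 and 0.207 with all libraries. Irs1 stayed at 1.36 ± 0.81, 3.40 ± 1.63 and 2.48 ± 0.80 CPM and was not called.

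In the PI3K, AKT and mTOR list of 19 genes, each call was higher in the coronary population of the comparison, or in arterial libraries for the call between coronary populations. Pik3cb had 131 ± 7.99 CPM in arterial, 99.6 ± 17.3 CPM in venous and 18.1 ± 2.19 CPM in endocardial libraries (log2 2.86 and 2.46 against endocardial, adjusted p = 4.99e-08 and 4.27e-07, edgeR). Pik3r3, a regulatory subunit gene of PI3-kinase, was the single gene of the 73 called between arterial (111 ± 22.0 CPM) and venous libraries (51.7 ± 5.40; log2 1.11, adjusted p = 0.00741), and that call ended without arterial replicate 2 (0.0859) or venous replicate 2 (0.0633). It was also higher in arterial than in endocardial libraries (log2 1.00, adjusted p = 0.00198). Pik3r1, another regulatory subunit gene, was called against endocardial in arterial libraries (log2 0.79, adjusted p = 0.0144; 0.0733 without arterial replicate 2, 0.0887 without endocardial replicate 3). Eif4ebp1 had 24.1, 34.5 and 19.6 CPM in arterial, venous and endocardial libraries, was called for venous minus endocardial alone of the 3 comparisons (adjusted p = 0.0476) and lost that call without any single library other than endocardial replicate 3 (0.0504 to 0.184).

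Of 9 genes of the MAP kinase branch only Hras was called, with 35.7 ± 1.46 CPM in arterial, 27.0 ± 3.69 CPM in venous and 11.4 ± 3.96 CPM in endocardial libraries (adjusted p = 0.000719 and 0.00794 against endocardial, edgeR). The transcription factor gene Foxo1, whose product AKT keeps out of the nucleus, was higher in endocardial libraries (210 ± 40.1 CPM) than in arterial (110.2 ± 10.2) and venous ones (116 ± 5.06), at adjusted p of 0.00154 and 0.00387. In the list of FOXO factors and genes they are known to activate, 4 of 12 genes (Foxo1, Sesn3, Klf2 and Cited2) were higher in endocardial libraries in both comparisons. Ccng2 was higher in arterial and Cdkn1b in venous libraries than in endocardial ones. Calls of Sesn3, Klf2 and Ccng2 ended without 1 library in places, at adjusted p of 0.0663 for Sesn3 in arterial minus endocardial without endocardial replicate 2, and of 0.0735 to 0.128 in venous minus endocardial without that library or venous replicates 2 or 3. For Klf2 in venous minus endocardial they were 0.0600 to 0.171 without endocardial or venous replicates 2 or 3, and for Ccng2 0.0591 to 0.149 without arterial replicates 1 or 2 or endocardial replicate 2. Cited2 and Ccng2 are named after their values were seen.

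In the growth hormone axis, the receptor gene Ghr was higher in endocardial libraries (159 ± 15.6 CPM) than in arterial (71.4 ± 4.30) and venous ones (60.9 ± 3.18), at adjusted p of 0.000141 and 3.48e-05 (edgeR). The kinase gene Jak2 was lower there, at 47.4 ± 12 CPM against 108 ± 13.7 and 102 ± 5.15 (adjusted p = 0.000637 and 0.00143). Cish, a target gene of that axis, was lower in venous than in endocardial libraries (adjusted p = 0.00531; 0.0678 without endocardial replicate 2). Igf2bp1, Igf2bp2 and Igf2bp3, which encode IGF2 mRNA-binding proteins, had log2 fold changes of -0.25 to 0.33 over the 3 comparisons, at unadjusted p of 0.203 or more (edgeR), and 0 of the 3 was called by edgeR or DESeq2.

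**Figure D4:**
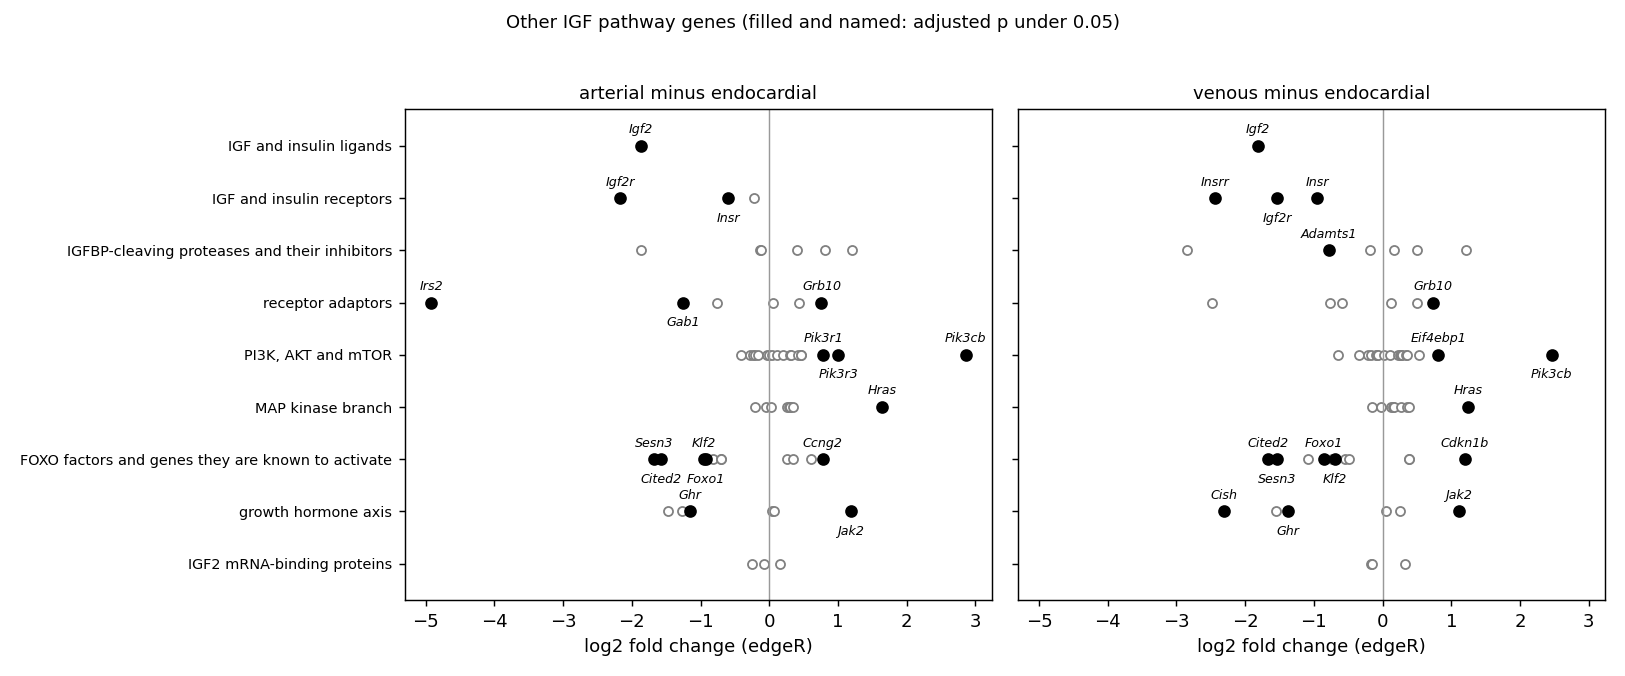
Log2 fold changes (horizontal axis) of 63 further IGF pathway genes with a mean of at least 5 CPM in a population, grouped by list (rows), for arterial and venous against endocardial libraries. Filled, named points had an adjusted p under 0.05; Igf2 and Igf2r lie to the left (higher in endocardial) and Pik3cb and Hras to the right in both panels.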

How the data were processed

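The deposited table holds expected counts per Ensembl gene. The submitters' processing notes name CASAVA 1.8.2, cutadapt 1.3, RSEM 1.2.3 and GRCm38, and no aligner or strand setting was found in the labels. Per the labels' protocols, RNA was isolated with a PicoPure kit, and library kits of NEB and of NuGEN are both named. Of 41214 features, 97.67% had a symbol and 45.5% of values above 0 were not whole. Counts were rounded and tested with edgeR 4.0.16 in R 4.3.3 (robust quasi-likelihood F test, TMM, low-count filter with a minimum count of 10, Benjamini-Hochberg over 17103 genes), with 1 mean per population in a single fit of all 9 libraries. The SE is the absolute log2 fold change over the square root of F. The code was tested on simulated data. DESeq2 1.42.0, other scalings and filters, a replicate block and leaving out each library were the alternatives.

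The labelled batch equals the replicate number and so pairs the libraries. Deviations from population means correlated at -0.0902 to 0.165 between libraries of the same number. With 1 library of each population in a batch, differences within batches are values without a test. The members, gene lists and tests were chosen with earlier results of these data known. Named pathway genes were up to 4 called genes per list by adjusted p, plus Igf2, Igf2r, Insr, Irs1, Irs2 and Foxo1, and the 3 genes nearest in profile to each of the 3 members with the widest range. Lengths were unions of exons in GENCODE release 21 for mouse, and upstream sequences came from RefSeq (GRCm38.p6), where all 8 members were matched. Some results for single pathway genes are not reported here.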

Additional observations from a re-analysis of the deposited data

How the results depend on the processing

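The 12 calls of the members held under all 18 alternatives to the fit. Of 324 values for the 6 members with counts in every library, 308 kept their direction and their side of the threshold, 11 passed it for Igf1 (venous minus endocardial) or Igfbp7 (arterial minus venous), and 5 of Igf1r changed sign. For arterial minus venous these log2 fold changes were 0.018 with upper-quartile scaling, 0.014 with a minimum count of 50, 0.13 without arterial replicate 1 and 0.26 without venous replicate 2, in a range of -0.25 to 0.26 when a library was left out. For venous minus endocardial the value was 0.020 without endocardial replicate 2, in a range of -0.56 to 0.020. Igfbp2 changed sign for venous minus endocardial without venous replicate 3 (-0.35, in a range of -0.35 to 1.44). Among the other pathway genes, the count of 1 for arterial minus venous was 4 with DESeq2, 6 without a filter, 3 with the replicate block and 0 to 2 when a library was left out. With the replicate block Igf2r and Adamts1 were added there, Shc1, Foxo3, Sesn1 and Cdkn1b for arterial minus endocardial and Shc1 for venous minus endocardial. Among the members, the block changed no call other than those of Igf1 and Igfbp7. Over all genes, the arterial minus venous count of 183 was 354 with DESeq2, 439 without a filter and 120 without venous replicate 1, and the venous minus endocardial count of 1753 was 1130 without venous replicate 3. With the longest transcript 5 of 24 levels per length moved beyond their SD. The causes were not tested.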
